A study of Rattus norvegicus with 23 samples.

Results

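The genes described here are 9 members of the NADPH oxidase family and its subunits, with the inducible nitric oxide synthase beside them, in the lungs of elderly rats that had inhaled a TiO2 nano-aerosol. They were Cybb, Cyba, Ncf1, Ncf4, Rac2, Nox1, Nox4, Duox2 and Nos2, taken by their symbols in the array annotation. All 9 were among the 23030 genes tested, through 13 probes on 31 spots. The rats were male F344 Fisher rats, 19 months old when inhalation began, and lung RNA came from the accessory lobe, with 1 rat per array. Controls breathed filtered air, while exposed rats breathed TiO2 (Aeroxide P25) at 10 mg/m3, nose-only, for 4 weeks of 5 days with 6 hours of inhalation each. Rats were necropsied at the end of exposure (D0, 6 controls and 5 exposed) or 28 days later (D28, 6 controls and 6 exposed). For the exposed D28 arrays the titles name day 28, which was used, although their source names day 0. The sixth exposed D0 array is not used here.

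NADPH oxidases move electrons from NADPH across a membrane to oxygen and so make superoxide or hydrogen peroxide. In phagocytes the catalytic subunit gp91phox (Cybb) is bound to p22phox (Cyba) in the membrane, and activation brings cytosolic subunits, among them p47phox (Ncf1) and p40phox (Ncf4), and the small GTPase Rac2 to it. Nox1 and Nox4 are catalytic subunits of other cells that also pair with p22phox, and the dual oxidases Duox1 and Duox2 of airway epithelium release hydrogen peroxide that lactoperoxidase uses in airway fluid. Nos2 makes nitric oxide from arginine and is induced in activated macrophages and epithelium.

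The signals are those of fixed 60-base probes. One probe each of Cybb, Ncf4 and Nos2 is printed, to show what was measured for a membrane subunit, a cytosolic subunit and the synthase, which did not pass the test on either day. Cybb and Nos2 have a second probe each. The Cybb probe lies at chrX:25518505-25518564 of rn4 on the minus strand, the Ncf4 probe at chr7:116190216-116190275 on the plus strand, and the Nos2 probe at chr10:65070156-65070215 on the plus strand.

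Cybb: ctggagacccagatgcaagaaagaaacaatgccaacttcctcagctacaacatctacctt
Ncf4: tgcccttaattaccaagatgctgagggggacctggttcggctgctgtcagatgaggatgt
Nos2: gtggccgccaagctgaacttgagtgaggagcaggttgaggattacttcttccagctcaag

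The promoters of Cyba and Ncf1 are shown because these were the members past the adjusted p, and that of Cybb, the partner of Cyba, because it was not. They come from a set of RefSeq promoters on GRCr8 in which 6 of the 9 members were found, and run from 250 bases before to 50 after the start site. They are chr19:67404165-67404464 on the minus strand for Cyba, chr12:28121635-28121934 on the plus strand for Ncf1 and chrX:16065016-16065315 on the minus strand for Cybb. Capitals mark 2 words searched on both strands, the core of the PU.1 type (GAGGAA) and the GC box (GGGCGG).

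Cyba: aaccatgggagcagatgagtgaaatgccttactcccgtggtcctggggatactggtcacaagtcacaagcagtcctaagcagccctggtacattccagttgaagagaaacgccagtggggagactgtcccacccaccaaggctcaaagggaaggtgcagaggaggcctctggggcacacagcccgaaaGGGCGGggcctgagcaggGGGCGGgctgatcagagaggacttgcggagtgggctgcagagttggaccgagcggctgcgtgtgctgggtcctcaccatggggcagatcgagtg
Ncf1: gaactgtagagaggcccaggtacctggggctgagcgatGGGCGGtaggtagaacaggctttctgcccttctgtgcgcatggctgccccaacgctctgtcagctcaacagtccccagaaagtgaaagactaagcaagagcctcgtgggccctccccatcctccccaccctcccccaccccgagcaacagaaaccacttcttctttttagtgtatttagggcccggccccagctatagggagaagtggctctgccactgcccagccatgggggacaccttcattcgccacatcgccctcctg
Cybb: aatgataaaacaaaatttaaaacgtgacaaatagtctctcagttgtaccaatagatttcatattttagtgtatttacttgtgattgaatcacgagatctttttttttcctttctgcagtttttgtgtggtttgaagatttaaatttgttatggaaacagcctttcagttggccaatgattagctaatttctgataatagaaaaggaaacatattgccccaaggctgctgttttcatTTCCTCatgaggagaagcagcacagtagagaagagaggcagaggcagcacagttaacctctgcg

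The Cyba window held 2 GC boxes, with their first bases 62 and 44 bases before the start site. The Ncf1 window held 1 GC box and the Cybb window held none. The PU.1-type core was found in the Cybb window 1 time, from 14 bases before the start site, and in neither of the others. Among 33469 rat promoters of the same length, 33.1% held a GC box and 27.6% the PU.1-type core. These matches describe letters and not binding.

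On D0 the exposed group had higher Cyba and Ncf1 signals than the control group, by 1.26 and 1.49 times. Cybb, the catalytic subunit that both serve, had a mean log2 signal of 10.28 in both groups. Cyba was also higher on D28. None of the 9 members reached both an adjusted p below 0.05 and a fold change (FC) of at least 1.5, in limma with Benjamini-Hochberg adjustment over all genes, on either day. By an unadjusted p below 0.05, 3 members were higher and 1 lower on D0, and likewise 3 and 1 on D28. Over all 23030 genes, 1291 were higher and 1460 lower at that level on D0, and 1110 and 1424 on D28. By the adjusted p alone 2 of 9 passed on D0 and 1 of 9 on D28. Over all genes, both thresholds were passed by 1.79% on D0 and 0.756% on D28, and the adjusted p alone by 2.86% and 1.32%. The median log2 FC of the members was 0.09 on D0 and 0.18 on D28, with -0.00070 and -0.0055 over all genes.

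Cyba encodes p22phox, the membrane subunit shared by the phagocyte oxidase, Nox1 and Nox4. On D0 its log2 normalized signal was 15.70, 15.73, 15.77, 15.80 and 15.81 in the 5 exposed rats. The 6 controls had a lowest value of 15.23, a median of 15.48 and a highest of 15.52, so every exposed rat lay above every control. The log2 FC was 0.34 (standard error 0.07, limma adjusted p = 0.0074). On D28 the exposed rats had a lowest value of 15.66, a median of 15.81 and a highest of 15.89. Controls had 15.44, 15.51 and 15.58 at the same points, and again the groups did not overlap. Here and below, the share of all genes whose groups did not overlap was not counted. The log2 FC on D28 was 0.30 (standard error 0.07, adjusted p = 0.0266). The change was small beside the FC limit of 1.5, and the replicates lay close together, with an SD of 0.12 (n = 6) in controls and 0.05 (n = 5) in exposed rats on D0. The probe of Cyba is spotted 10 times on each array, and its position is chromosome 19 from 52713156 to 52713215 of rn4. With 75th percentile scaling of the arrays the D0 value of Cyba was 0.32 with an adjusted p of 0.0648, and the D28 value 0.31 with an adjusted p of 0.0962. On D28 Cyba also no longer passed with cyclic loess (limma adjusted p = 0.0503), only the arrays of the day in the fit (0.169) or a replicate block (0.0631). The same held when control replicate 3 or 5 or exposed replicate 2, 4 or 6 was left out.

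Ncf1 encodes p47phox, the organizer that carries the cytosolic subunits to the membrane once it is phosphorylated. On D0 its signal was 10.80, 11.04, 11.12, 11.19 and 11.23 in the exposed rats. Controls ran from 10.37 through a median of 10.48 to 10.73, below every exposed rat. The log2 FC of 0.57 (standard error 0.12, adjusted p = 0.00799) came close to, and did not reach, the FC limit. Leaving out control replicate 5 or 6 or exposed replicate 5 moved it past the limit, as did the replicate block (0.59, adjusted p = 0.0225). On D28 the exposed rats had a lowest value of 10.70, a median of 11.11 and a highest of 11.38. Controls had 10.43, 10.68 and 10.94, so 5 of 6 exposed rats lay above every control and 1 lay within them. The log2 FC on D28 was 0.41 (standard error 0.11, adjusted p = 0.078), which did not pass. It passed when exposed replicate 3 was left out, as it did with an intensity trend and robust estimation (adjusted p = 0.044) and with a filter on probes well above background (0.0441). Ncf1 has 2 probes, on chromosome 12 from 23585727 to 23585786 and from 23587232 to 23587291 of rn4. Each probe on its own gave a log2 FC of the same sign, of 0.63 and 0.52 on D0 and of 0.32 and 0.50 on D28.

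Cybb encodes the heme-bearing core through which electrons pass. Its signal on D0 was 9.98, 10.16, 10.21, 10.27 and 10.75 in exposed rats, and controls had a lowest value of 9.95, a median of 10.27 and a highest of 10.61. The log2 FC of -0.0025 had a 95% interval from -0.44 to 0.44. On D28 the exposed rats ran from 9.70 to 10.81 with a median of 10.15, and controls from 9.71 to 11.04 with a median of 10.29. The log2 FC there was -0.14 (95% interval from -0.57 to 0.28), and the groups overlapped on both days. Both probes of Cybb were well above background on all 23 arrays. The spread within groups of Cybb was wide, with an SD of 0.48 in the controls of D28. Without control replicate 1 the D28 value was 0.0025.

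Ncf4 encodes p40phox, which binds a phosphoinositide of phagosomes. Its signals were between 11.17 and 11.53 in the exposed and between 11.06 and 11.49 in the control rats on D0. The log2 FC was 0.09 (95% interval from -0.19 to 0.37). On D28 it was 0.22 (95% interval from -0.05 to 0.49), where 3 of 6 exposed rats lay above every control and control replicate 6, at 10.59, lay below all others. Rac2, a small GTPase of blood cells, had a log2 FC of 0.19 on D0 (adjusted p = 0.324) and 0.18 on D28 (adjusted p = 0.374). Its exposed rats were at 14.06, 14.07, 14.13, 14.18 and 14.30 on D0, and its controls had a lowest value of 13.83, a median of 13.95 and a highest of 14.19. On D28 the values ran from 13.91 to 14.21 in exposed and from 13.73 to 14.05 in control rats, with 3 of 6 exposed rats above every control. Neither gene passed the test.

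**Figure D1:**
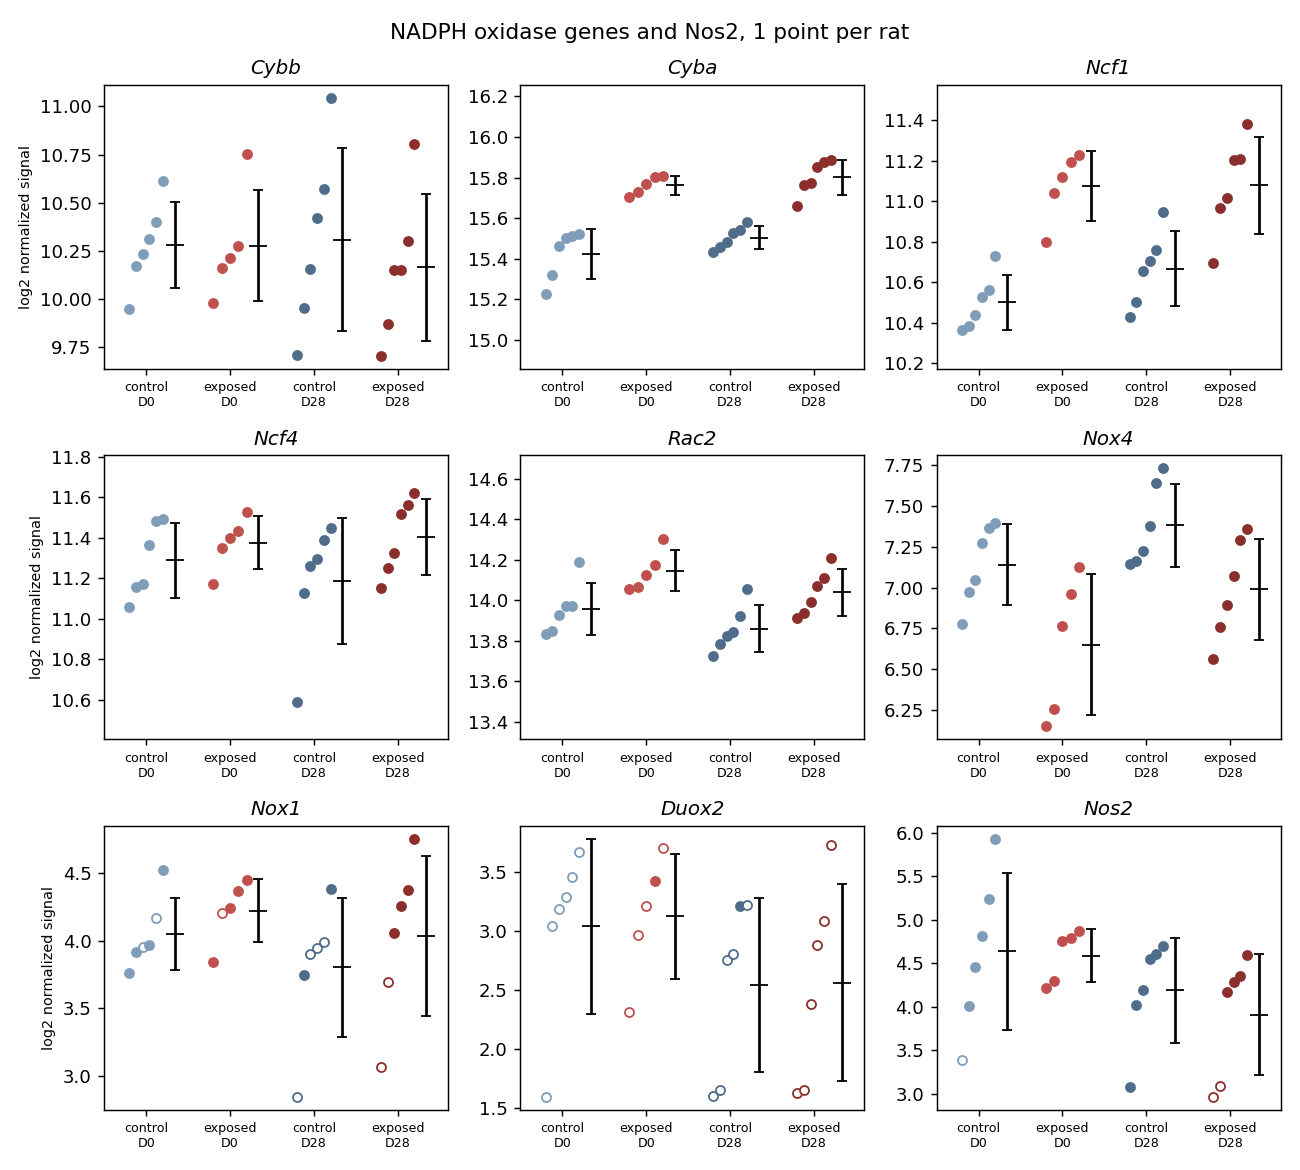
Log2 normalized signal of each member in the 4 groups, 1 point per rat sorted within its group, with the mean and SD as a bar beside the points; open points were not well above background, and each panel has its own scale. The exposed rats lie above all controls for Cyba on both days and for Ncf1 on D0, while Cybb overlaps, and for Duox2 only 2 of 23 arrays were well above background.

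Nox4 encodes an oxidase that makes hydrogen peroxide without the cytosolic subunits and is known from fibroblasts and vessel walls. It was the member with the lowest log2 FC on both days. On D0 its signal was 6.15, 6.26, 6.76, 6.96 and 7.13 in the exposed rats. Controls had a lowest value of 6.78, a median of 7.16 and a highest of 7.40, so that 3 of 5 exposed rats lay below every control. The log2 FC was -0.49 (standard error 0.19, adjusted p = 0.217), which did not pass. With the slide as a block it was -0.52 with an adjusted p of 0.0141, which passed the adjusted p and stayed under the FC limit. It was smaller, and did not pass, with normexp background correction (-0.27 on D0 and -0.24 on D28), with no background correction (-0.32 and -0.26) and with the deposited table (-0.33 and -0.26). On D28 the exposed rats had 6.56, 6.98 and 7.36 and the controls 7.15, 7.30 and 7.73 as lowest, median and highest values. The log2 FC there was -0.39 (adjusted p = 0.4), and -0.38 (adjusted p = 0.108) with the slide as a block. Its 2 probes had the same sign on both days, with log2 FC of -0.52 and -0.45 on D0 and of -0.49 and -0.29 on D28.

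Nox1, an oxidase best known from colon epithelium and vascular muscle, was dim. Its signal was well above background on 14 of 23 arrays and its groups overlapped. The log2 FC was 0.17 on D0 (95% interval from -0.36 to 0.71) and 0.23 on D28 (from -0.28 to 0.74). Duox2 was well above background in 0 of 6 controls and 1 of 5 exposed rats on D0, and in 1 of 6 controls and 0 of 6 exposed rats on D28. No FC is given for it, since nearly every array of all 4 groups lay near background.

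Nos2 was close to background too, well above it on 20 of 23 arrays. On D0 the exposed rats had 4.21, 4.30, 4.75, 4.79 and 4.87, and the controls ranged from 3.39 to 5.93 with a median of 4.63, wide enough to hold every exposed rat. The log2 FC was -0.05 (95% interval from -0.87 to 0.76). On D28 it was -0.28 (95% interval from -1.06 to 0.49), with exposed rats from 2.96 to 4.59 and controls from 3.07 to 4.69. The 2 probes of Nos2 differed in sign on D0, at 0.25 and -0.36, with standard errors of 0.51 and 0.35. They were well above background on 9 and 20 of 23 arrays, in that order. No change of Nos2 was detectable at this spread.

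**Figure D2:**
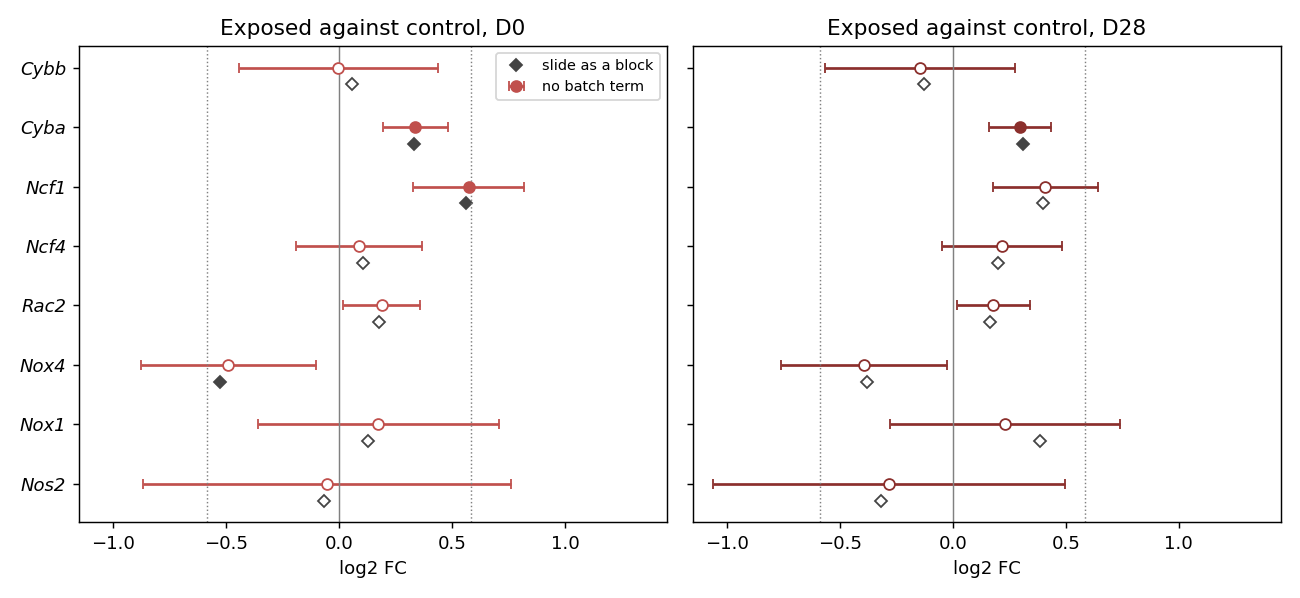
Log2 FC of exposed against control rats for 8 members on D0 (left) and D28 (right). Circles are the fit without a batch term with 95% intervals, diamonds the fit with the slide as a block, filled where the adjusted p was below 0.05, and dotted lines the FC limit of 1.5 in either direction. Cyba is filled on both days, Ncf1 on D0, and Nox4 on D0 with the slide block alone.

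The arrays were spread over 5 slides, and values within slides set exposed rats beside the controls of their own slide. On D28, 5 of 6 exposed rats had such a control. Slide 5 held 1 array, control replicate 4 of D28, so a fit with the slide as a block takes no comparison from it. On D0 Cyba was higher in the exposed rats within each of the 4 slides that held both groups, by 0.23 to 0.42. Ncf1 was higher within the same 4 slides, by 0.43 to 0.86. Nox4 was lower in all 4, with differences from -0.75 to -0.27. Rac2 was higher in 3 of 4 and Cybb in 2 of 4. On D28, where 3 slides held both groups, Cyba was higher by 0.23 to 0.42, Ncf1 higher by 0.15 to 0.78 and Nox4 lower by a difference between -0.51 and -0.02. With the slide as a block the log2 FC of Cyba was 0.33 (adjusted p = 0.00394) on D0 and 0.31 (0.014) on D28, and that of Ncf1 was 0.56 (0.00443) on D0 and 0.40 (0.056) on D28.

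**Figure D3:**
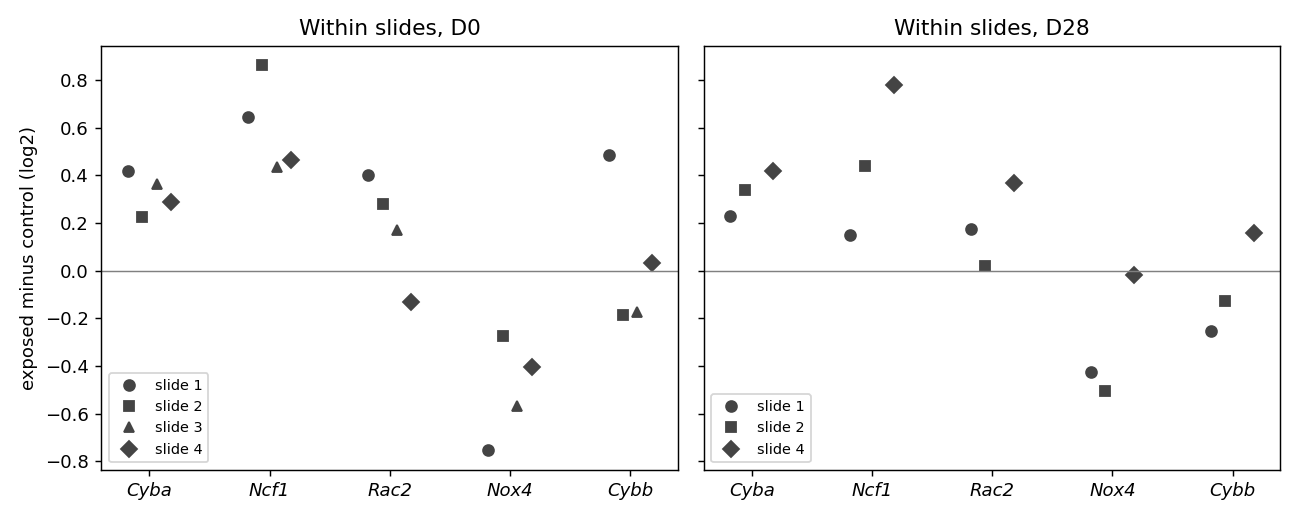
Mean of the exposed minus mean of the control arrays on the same slide, in log2 units, for 5 members on D0 (4 slides) and D28 (3 slides). Each slide held 1 or 2 arrays of a group; Cyba and Ncf1 lie above 0 and Nox4 below 0 on each slide of both days, while Cybb lies on both sides.

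By the interaction term, the difference of the exposure effect between the days passed for no member in limma. The adjusted p was 1 for each, and 0.0304% of all genes passed. The unadjusted p was below 0.05 for 0 of 9, and over all 23030 genes for 357 higher and 435 lower. The interval of this difference ran from -0.24 to 0.16 for Cyba and from -0.50 to 0.18 for Ncf1. Between the controls of D28 and of D0, 0 of 9 members passed the adjusted p, again with 0 of 9 at an unadjusted p below 0.05. Over all genes, 0.877% passed the adjusted p, and 1502 were higher and 1553 lower by the unadjusted p. Duox2 left aside, the log2 difference of the members, D28 minus D0, ran from -0.45 for Nos2 to 0.24 for Nox4.

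The lung of these rats holds many cell types, and in bulk RNA more cells of a type and more RNA per cell cannot be told apart. Of the macrophage markers, 11 of 12 were measured and 2 rose by the adjusted p on D0, Siglec1 (log2 FC 0.89, adjusted p = 0.00262), a sialic acid receptor, and Cd68 (0.55, adjusted p = 0.00293), a lysosomal glycoprotein. On D28 Cd68 alone passed, with 0.42 (adjusted p = 0.0293). Over all genes, 2.86% passed the adjusted p on D0 and 1.32% on D28. The mean log2 signal of the 11 markers lay between 9.45 and 9.82 in exposed and 9.12 and 9.34 in control rats on D0, without overlap, and between 9.26 and 9.56 and 8.95 and 9.37 on D28. Their summed signal was between 160093 and 186765 in exposed and 143896 and 178934 in control rats on D0, and between 150396 and 175383 and 128431 and 173447 on D28. The class A scavenger receptor Marco was well above background on 2 arrays, both exposed rats of D0. Of the neutrophil markers, 1 of 11 measured passed on D0, Lcn2 (log2 FC 1.65, adjusted p = 0.00139), which epithelium also makes. The list as a whole had 4 of 11 markers higher on D0, with a median log2 FC of -0.06, and by an unadjusted p below 0.05 there were 1 higher and 2 lower. S100a8 and S100a9, abundant in neutrophils, had 0.27 and 0.63 on D0 and did not pass. Fpr1, a formyl peptide receptor, had -0.80 (adjusted p = 0.111), with every exposed rat below every control, and Ngp had -0.75 (adjusted p = 0.372). Ngp was near background, well above it in 4 of 6 controls and 0 of 5 exposed rats on D0. The summed neutrophil level was between 15082 and 55970 in exposed and 19988 and 53954 in control rats. It was between 27667 and 67687 and between 16540 and 38677 on D28, where 0 of 11 passed (1 higher and 1 lower by an unadjusted p below 0.05). In fluid washed from the left lobe, the paper reports a higher percentage of neutrophils in exposed than in control elderly rats on both days. That is a count of cells from another lobe and not of RNA. The 5 pan-leukocyte markers gave 0 past the adjusted p in limma on either day (1 higher on D0 and 0 on D28 by an unadjusted p below 0.05). On D0, 3 of 5 were higher, with a median log2 FC of 0.13. Ptprc (CD45) had -0.07 and Coro1a -0.14, and Laptm5, Cd53 and Itgb2 had 0.16, 0.13 and 0.15. Their sum was between 87619 and 106509 in exposed and between 81704 and 94321 in control rats on D0, and between 83061 and 101151 and between 80426 and 101299 on D28. None of the 7 type II pneumocyte markers passed on either day (4 and 2 were higher by an unadjusted p below 0.05). Their sum, from 306902 to 343065 in exposed and from 268163 to 292622 in control rats on D0, did not overlap. On D28 it ran from 269616 to 316699 and from 251145 to 289558. Over the lists for type I pneumocytes, T cells, B cells, endothelium, fibroblasts and smooth muscle, the first 2 genes of each had log2 FC between -0.33 and 0.19 on D0 and between -0.34 and 0.22 on D28, and none of these 12 passed. Elsewhere in these lists 3 genes fell by the adjusted p: Aqp5, a water channel of type I pneumocytes, by 0.47 (adjusted p = 0.0318) and Tcf21, a fibroblast transcription factor, by 0.66 (adjusted p = 0.0192) on D0, and Tek, an endothelial receptor, by 0.46 (adjusted p = 0.0246) on D28. The mean log2 signal of the 6 type I markers ran from 12.10 to 12.49 in exposed and from 12.53 to 12.67 in control rats on D0, without overlap, and from 12.33 to 12.58 and 12.46 to 12.83 on D28. Their sums on D0, from 120144 to 153901 and from 147254 to 181352, overlapped. The mean log2 signal of the 6 fibroblast markers ran from 9.72 to 10.36 and from 10.23 to 10.68 on D0, and from 10.40 to 10.83 and 10.67 to 11.01 on D28. All 5 smooth muscle markers had a log2 FC below 0 on D0, 2 of them at an unadjusted p below 0.05. Their mean log2 signal ran from 9.05 to 9.20 in exposed and from 9.21 to 9.46 in control rats, without overlap, and from 8.85 to 9.70 and 9.02 to 9.41 on D28. Their sums on D0, from 3661 to 4362 and from 4356 to 4913, overlapped. All 6 endothelial markers had a log2 FC below 0 on both days, 2 on D0 and 3 on D28 at an unadjusted p below 0.05. Their mean ran from 12.55 to 12.87 and from 12.87 to 13.07 on D0, and from 12.65 to 13.02 and 12.92 to 13.25 on D28. The part of these shifts in the Cyba, Ncf1 and Nox4 values was not tested.

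Over the 23 arrays Cyba and Ncf1 moved together (Pearson r = 0.86 of their signals), and less so as deviations from group means (r = 0.48). Between Cybb and Cyba r was -0.12, and between Cybb and Ncf4 it was 0.40, or 0.50 within groups. All these values share arrays and normalization and are given as a description. The 3 genes most like each member were listed by r over all 23 arrays, with r within groups beside it. For Cyba they were Gpr137b (0.92, within groups 0.60), LOC689757 (0.91, 0.54) and Bcat1 (0.90, 0.67). For Ncf1 they were Reep4 (0.92, 0.74), Gas2l3 (0.92, 0.76) and Slamf8 (0.91, 0.74). Cybb lay with Bpnt1 (0.90, 0.91), Prr15 (0.88, 0.89) and Chst12 (0.88, 0.88), whose r within groups was as high. Ncf4 lay with Siglec5 (0.82, 0.84), Fgr (0.76, 0.78) and Cd84 (0.74, 0.69). For Rac2 the genes were Ripk3 (0.82, 0.64), Parvg (0.79, 0.64) and Myo1g (0.79, 0.65). For Nox4 they were Prrc1 (0.92, 0.89), Tuba1a (0.91, 0.84) and Gulp1 (0.91, 0.84). The dim members Nox1 and Nos2 were most like Bri3bp (0.76, 0.77), Polr2g (0.74, 0.71) and Pik3c2b (0.74, 0.76), and Mov10 (0.82, 0.77), Ccdc117 (0.77, 0.73) and Csf3r (0.75, 0.70), in that order.

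Among the 19 partners and regulators of the oxidases, 5 rose past both thresholds on D0 and 3 on D28, and none fell, with 4 above the adjusted p alone on D28. Over all genes, 1.79% passed both thresholds on D0 and 0.756% on D28, and 1.32% passed the adjusted p alone on D28. This list was chosen with earlier results of these data known. The median log2 FC of this list was 0.27 on D0 and 0.06 on D28. Duox1, the dual oxidase beside Duox2 on chromosome 3, had signals of 9.26, 9.83, 9.88, 10.01 and 10.37 in the exposed D0 rats. The controls ran from 8.31 to 8.87 with a median of 8.71, below all of them. Its log2 FC was 1.25 (standard error 0.19, adjusted p = 0.000663) on D0 and 1.11 (standard error 0.18, adjusted p = 0.00287) on D28. Duoxa1, its maturation factor, rose by 0.64 (adjusted p = 0.0153) and 1.03 (adjusted p = 0.000392). Lpo, the lactoperoxidase that turns hydrogen peroxide into antimicrobial products in airway fluid, rose by 1.64 on D0 (log2 FC, standard error 0.24, adjusted p = 0.000447) and by 2.01 (standard error 0.23, adjusted p = 0.000104) on D28. Every exposed rat lay above every control for Duox1, Duoxa1 and Lpo on both days. Duox2 itself was near background in the same lungs, and Duoxa2, its maturation factor, was well above background on 7 of 23 arrays, with control replicate 3 of D28 at 7.81 and the other controls of that day at or under 4.47. The probes of these 4 dual oxidase genes lie between 109059633 and 109128388 of chromosome 3 in rn4.

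Noxo1 and Noxa1, the organizer and activator of the Nox1 complex, rose on D0. Noxo1 had a log2 FC of 0.90 (adjusted p = 0.0175) and Noxa1 of 0.71 (adjusted p = 0.00526), with all 5 exposed rats above all 6 controls in each. On D28 their values were 0.27 (adjusted p = 0.701) and 0.18 (adjusted p = 0.691). The difference between the days did not pass, with an adjusted p of 1 for both. By an unadjusted p below 0.05, the exposure effect was lower on D28 than on D0 for 3 of the 19 partners and regulators and higher for 0. The D0 call of Noxo1 was lost when exposed replicate 2 or 5 was left out, and that of Duoxa1 when exposed replicate 1 was left out. Vav1, an exchange factor for Rac, had 0.42 on D28 (adjusted p = 0.0467), past the adjusted p alone. Prkcd, a kinase of p47phox, was higher in the controls of D28 than in those of D0 by 0.67 (adjusted p = 0.000442), and its log2 FC with exposure was 0.27 on D0 and -0.03 on D28. Ciliated cell markers, of cells that are known to carry dual oxidases, did not pass: 0 of 5 on either day, with 2 on D0 and 4 on D28 lower by an unadjusted p below 0.05 and Foxj1 at -0.15 and -0.27 and Tppp3 at -0.31 and -0.39. Their sum was between 39483 and 54415 in exposed and between 49147 and 68066 in control rats on D0, and between 42799 and 54960 and between 52855 and 71485 on D28. Their mean log2 signal ran from 9.70 to 10.37 in exposed and from 10.26 to 10.49 in control rats on D0. On D28 it ran from 9.74 to 10.27 and from 10.39 to 10.61, without overlap. Of the 5 markers, 0 had a log2 FC above 0 on either day, with medians of -0.29 and -0.45. Of the secretory airway cell markers 0 of 6 passed on either day, with Scgb1a1 at -0.16 and -0.17 and Scgb3a1 at -0.47 and -0.61. By an unadjusted p below 0.05, 1 was higher and 1 lower on D0, and 0 and 2 on D28. The list was mixed, with 3 of 6 higher on D0 (log2 FC from -0.72 to 0.49) and 2 of 6 on D28 (from -0.91 to 1.15). Their sum was between 112490 and 173051 in exposed and between 136169 and 186612 in control rats on D0, and between 125912 and 149425 and between 127065 and 184922 on D28.

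**Figure D4:**
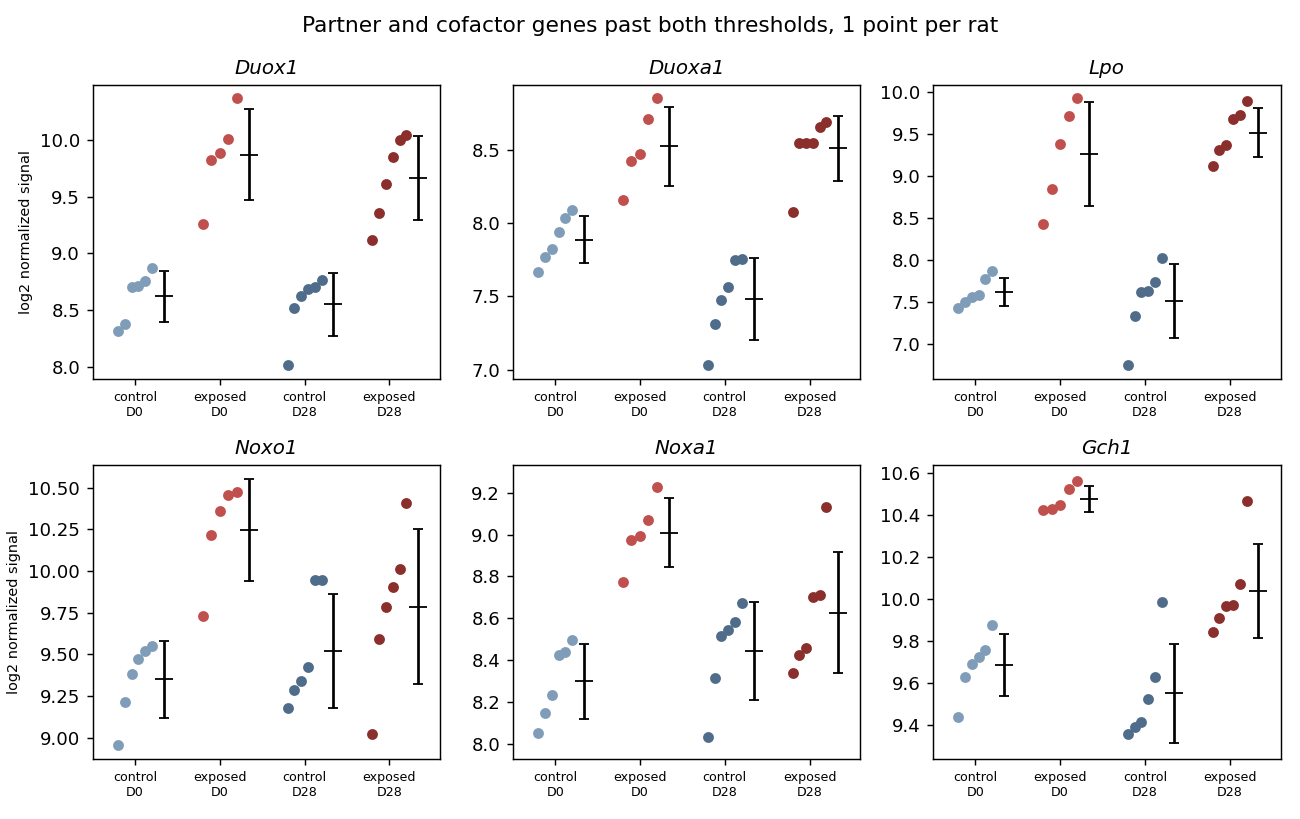
Log2 normalized signal of 6 partner and cofactor genes in the 4 groups, 1 point per rat sorted within its group, with the mean and SD beside the points and a scale for each panel. Duox1, Duoxa1 and Lpo lie above the controls on both days, while Noxo1, Noxa1 and Gch1 are separate from the controls on D0 and overlap them on D28.

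Around Nos2, 1 of 17 nitric oxide and arginine genes rose past both thresholds on D0 and 0 on D28. Over all genes, 1.79% and 0.756% passed both. By an unadjusted p below 0.05, 3 of the 17 were higher and 2 lower on D0, and 2 and 2 on D28. The gene past both thresholds was Gch1, which makes the precursor of tetrahydrobiopterin, the cofactor of nitric oxide synthases. Its signal was 10.43, 10.43, 10.45, 10.53 and 10.56 in the exposed D0 rats. The controls ran from 9.44 to 9.88 with a median of 9.71, without overlap. The log2 FC was 0.79 (standard error 0.12, adjusted p = 0.000525) on D0. On D28 it was 0.49 (standard error 0.11, adjusted p = 0.0318), under the FC limit. On D28 Gch1 no longer passed the adjusted p with only the arrays of the day (0.217) or with a replicate block (0.0689). The same held in 7 of 23 fits that left out 1 array, of control replicates 2, 3, 4 and 6 and exposed replicates 1, 4 and 5. Gchfr, which binds and inhibits that enzyme, fell by 0.36 on the log2 scale on D0 (adjusted p = 0.0262) and had -0.29 on D28 (adjusted p = 0.0973), with every exposed rat below every control on both days. Ass1 had the lowest log2 FC of this list, -0.54 on D0 and -0.43 on D28, and did not pass the adjusted p. Its D0 values ran from 9.06 to 9.32 in exposed and from 9.50 to 9.85 in control rats. The other nitric oxide synthases did not pass: Nos1 had -0.14 on D0 and -0.18 on D28 as the mean of 2 probes, and Nos3, the endothelial form, had -0.20 and -0.12. The Nos1 probe that was well above background on all 23 arrays gave -0.55 (adjusted p = 0.389) and -0.53 (adjusted p = 0.426) in the fit over probes. The other Nos1 probe was well above background on 0 arrays. Of 10 inducers of Nos2 and the Duox genes, 1 rose past both thresholds on D0 and 0 on D28 (1.79% and 0.756% of all genes). By an unadjusted p below 0.05, 2 were higher and 1 lower on D0, and none on D28. The lowest log2 FC on D0 was -1.76, for Il4, which was well above background in 2 of 6 controls and 0 of 5 exposed rats. The gene that rose was the cytokine Tnf, taken as the mean of 2 probes. Its log2 FC was 1.06 on D0 (standard error 0.22, adjusted p = 0.00887) and 0.26 (adjusted p = 0.737) on D28. The adjusted p was 1 for the difference between the days. In the limma fit over probes, the Tnf probe well above background on all 23 arrays gave 1.025 on D0 (adjusted p = 0.00665). The other, well above background on 9 arrays, gave 1.09 (adjusted p = 0.15). With normexp background correction the D0 value of Tnf was 0.65 (adjusted p = 0.000738).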

How the data were processed

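Lung accessory-lobe RNA of 23 rats was hybridised on single-colour Agilent rat arrays. The authors deposited the output of Agilent Feature Extraction (version 11.0.1.1 in 22 headers, 12.0.1.1 in 1, that of control replicate 4 of D28), from which the processed signal, an intensity already corrected for background, was used. The deposited table of all arrays is an intensity per spot, quantile normalized. Positions are those of rn4 in the headers. Spots marked as outliers were set missing. Probes above the 95th percentile of 308 negative controls on at least 5 arrays were kept (40418 of 45598). Log2 signals were quantile normalized, and spots, then the probes of a symbol, were averaged. Symbols came from the annotation columns of 1 array's file. The 29 genes with a missing value were dropped.

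One limma (3.58.1, R 4.3.3) model with 4 group means and 19 residual degrees of freedom gave all adjusted p of genes, by Benjamini-Hochberg over 23030 genes. No pseudocount was needed, and the number of arrays limits the precision. No batch term was used in the main settings, because the methods name none of the batches they corrected, and the slide was an alternative, as were other scalings, filters and sources of values (below). Each slide was scanned on 1 day. Spots well above background were 69.5 to 77.9% of an array. RNA came from separate animals. The model was tested on simulated data, with changes larger than those measured for the members.

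The named genes were all members, the direct partners (1 is not reported here), and each gene of the partner, nitric oxide and inducer lists past both thresholds, with the first 2 genes of each marker list. Vav1, Gchfr, Ass1, Prkcd, Siglec1, Lcn2, Aqp5, Tcf21 and Tek were named, and the promoters chosen, after their values were seen. Likeness is the Pearson correlation over the 23 arrays. The members and lists were chosen with earlier results of these data known.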

Additional observations from a re-analysis of the deposited data

Results flagged for a closer look

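In each of 36 sets of arrays (a member in a group), the array farthest from the others was examined, and 2 stood apart, where chance gives about 1 in 20. Ncf4 was 10.59 in replicate 6 of the D28 controls, where the other arrays lay between 11.13 and 11.45. Without that array the log2 FC of Ncf4 on D28 was 0.10 (limma adjusted p = 0.779), against 0.22 with it. Duox2 was 1.60 in replicate 6 of the D0 controls, against 3.05 to 3.68 in the others, and none of the 6 was well above background.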

How the results depend on the processing

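Of 382 values of single genes under the other settings, 367 kept their direction and side of the adjusted p, as did 709 of 736 with 1 array left out. The number of members past both thresholds, 0 on each day, became 1 (Ncf1) on D0 with the replicate block, and without the fold change limit 2 on D0 and 1 on D28; with 1 array left out it ran from 0 to 1 on D0 and was 0 on D28. Members past the adjusted p on D0 numbered 1 with 75th percentile scaling and 2 in every fit with 1 array left out. On D28 they numbered 0 with 75th percentile scaling, cyclic loess, only the arrays of the day or the replicate block, 2 with the filter on well above background or with trend and robust estimation, and 0 to 2 with 1 array left out. List genes called numbered 6 to 8 on D0 and 3 on D28 with 1 array left out, and 5 on D28 without the fold change limit. Values near 0 changed sign: Cybb on D0 was 0.0051 with 75th percentile scaling, 0.0047 with cyclic loess, 0.0059 with normexp, 0.058 with the slide as a block and -0.12 to 0.072 with 1 array left out, where Cybb on D28 ran from -0.27 to 0.0025 and Nos2 on D0 from -0.30 to 0.21. Nos2 on D0 was 0.048 with 75th percentile scaling. The cause was not tested. Over all genes, 412 calls on D0 became 225 with normexp, and 174 on D28 became 97 with normexp, 61 with only the arrays of the day and 111 without exposed replicate 1 of D28. Nox1 could not be fitted with the filter on well above background. Exposed and control rats of the same replicate number had correlations from -0.225 to 0.455. Rats of different numbers were not set beside them, so whether the numbers pair the rats was not tested. The replicate block moved the calls over all genes to 356 and 138. Signals near background limit Duox2, Nox1 and Nos2.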
